A study of Xenopus tropicalis with 26 samples.

Results

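In early gastrulae of the frog Xenopus tropicalis, 192 of 26550 gene models set the embryos of clutch A apart from those of clutches B and C. Expression was measured by RNA-seq of 15 single embryos, 5 from each clutch. The members were chosen by a rule on these same values, in TPM, a unit of transcript abundance that corrects for transcript length and is scaled to the same total in every embryo. A model was high in clutch A if its clutch A mean was at least 10 TPM and at least 1.5 times both other clutch means, with all 5 clutch A embryos above the other 10. It was low in clutch A if the means of clutches B and C were both at least 10 TPM and at least 1.5 times the clutch A mean, with all 5 clutch A embryos below the other 10. The mean over all embryos had to be under 750 TPM, a limit that left out no model that met the other conditions. The rule found 93 models high and 99 models low in clutch A. Since it used the levels of clutch A against those of clutches B and C, these levels are a description without a test. Clutch B against clutch C was not part of the rule and was tested.

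The embryos were untreated whole embryos at Nieuwkoop-Faber stage 10.25, 7 hours after fertilisation, and this holds for clutches A, B and C alike. Females had been given the gonadotropin Chorulon, 10 units in the nights before and 100 units on the day of egg collection, and eggs were fertilised in vitro. Strain and parents of each clutch were not given in the sources used here, and the labels name each clutch by a letter only, so parents, fertilisation and handling cannot be told apart. The series also holds H3K4me1 ChIP-seq of germ layers, which was not used here because the expression table gives no positions for its gene models.

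A frog egg is loaded by its mother with RNA and protein that run the first cell divisions. The embryo's own genome is switched on in the blastula, and maternal transcripts are cleared while zygotic ones build up, so a gastrula holds a mixture of both. Siblings of a clutch share their parents and the time of fertilisation, whereas clutches can differ in genotype, in what the egg was given and in the pace of development. The table names its models only by ID, and the reference table of RefSeq genes held 0 of these 26550 IDs. No gene name, function or sequence can therefore be attached to a member, and the labelled tissue could not be checked against marker genes. In whole embryos, fewer cells of a type and less RNA per cell cannot be told apart, and TPM keeps no record of sequencing depth, which is unknown.

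Among the 12551 models with a mean of at least 1 TPM, 2.96% had all 5 clutch A embryos above the other 10 and 3.12% had all 5 below. All 93 high and all 99 low members passed this minimum, and nothing is read from these shares, since the rule asked for such a gap. The same rule applied to clutch B gave 99 high and 100 low models, and applied to clutch C it gave 248 high and 218 low models. A model can meet the rule for clutch A and also for clutch B or C, and these sets shared some models. Most members were of modest level: 73 of the high and 73 of the low models had a mean under 50 TPM over all embryos, and 14 and 12 had a mean of at least 100 TPM. Summed over the high models, 0.738% to 0.895% of all TPM lay in them in clutch A embryos, against 0.300% to 0.339% in clutch B and 0.301% to 0.335% in clutch C. The low models took 0.278% to 0.300% in clutch A embryos, 0.617% to 0.662% in clutch B and 0.658% to 0.770% in clutch C.

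**Figure D1:**
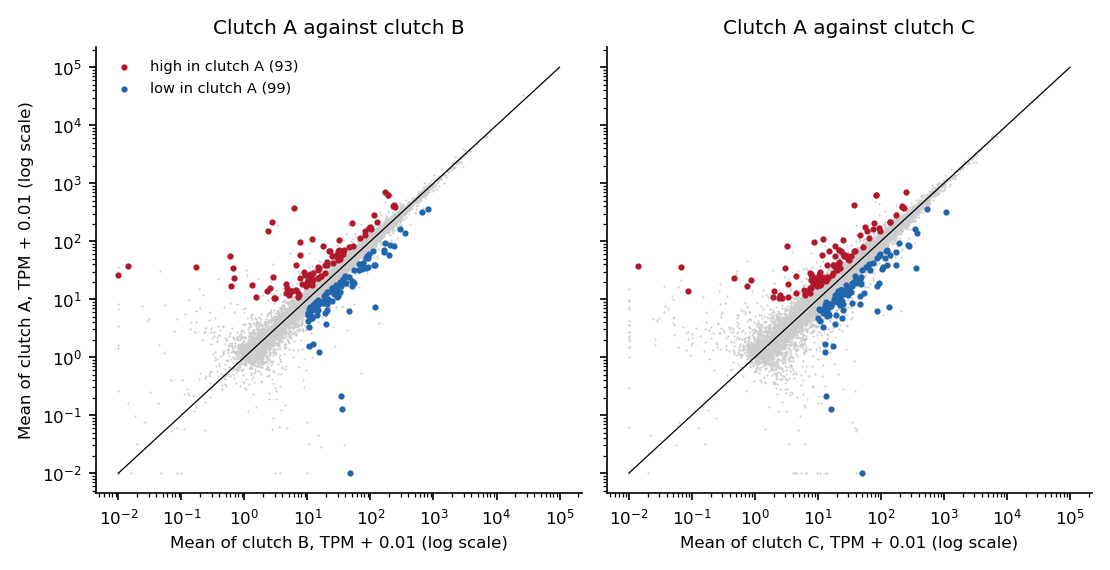
Mean TPM of clutch A (vertical) against clutch B (left) and clutch C (right), on log axes with 0.01 TPM added, for models with a mean of at least 1 TPM (grey), the 93 models high in clutch A (red) and the 99 low in clutch A (blue). The line marks equal means, and the members fan out on either side of it, with a few models near the axes that were almost absent from one side.

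Differences just past the limit were the commonest. In the high group, 50 models were between 1.5 and 2 times the nearer of the other clutch means, 26 between 2 and 3 times, 9 between 3 and 5 times and 8 at least 5 times, with a median ratio of 1.92. The low group was alike in shape: the nearer clutch was between 1.5 and 2 times clutch A in 58 models, between 2 and 3 times in 29, between 3 and 5 times in 3 and at least 5 times, or with clutch A listed at 0, in 9, with a median of 1.85. The gap between clutch A and the closest embryo of the other clutches was also often small. The lowest clutch A embryo was a median of 1.44 times the highest other embryo in the high group, and 1.01 times in the model with the smallest gap. In the low group the lowest other embryo was a median of 1.31 times the highest clutch A embryo, and 1.02 times at the least.

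At the fold limit, Xetrov90027459m.g was the high model closest to it, at 34.2 ± 5.45 TPM in clutch A, 0.638 ± 0.126 TPM in clutch B and 22.7 ± 3.61 TPM in clutch C (SD, n = 5 each), a ratio of 1.504 to clutch C. The model Xetrov90027231m.g just missed it, at 54.9 TPM in clutch A, 28.1 in clutch B and 36.9 in clutch C, a ratio of 1.49. At the level limit, Xetrov90019224m.g was inside with 10.3 ± 0.773 TPM in clutch A, against 2.90 ± 0.355 in clutch B and 2.38 ± 0.331 in clutch C, and Xetrov90025999m.g outside with 9.92 TPM in clutch A, against 3.35 in clutch B and 5.54 in clutch C. On the low side, Xetrov90028091m.g was inside the fold limit at 8.29 TPM in clutch A, 12.5 in clutch B and 47.0 in clutch C, and Xetrov90030749m.g outside it at 10.97, 16.4 and 16.5 TPM in clutches A, B and C. The low model closest to the level limit, Xetrov90025520m.g, had 5.36 ± 1.11 TPM in clutch A, 10.1 ± 1.26 in clutch B and 19.5 ± 1.71 in clutch C, while Xetrov90008357m.g fell outside with 5.68, 12.97 and 9.93 TPM in clutches A, B and C.

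A small set of high models was close to absent outside clutch A. In 4 of the 93, the means of clutches B and C were both under 1 TPM. Xetrov90016066m.g had 35.8, 31.5, 42.7, 39.2 and 35.1 TPM in embryos 1 to 5 of clutch A, and was listed at 0 in 8 of the other embryos and at 0.02 TPM in embryo 2 of clutch B and embryo 4 of clutch C. Its clutch A embryos thus lay close together, far from every other embryo. Xetrov90014292m.g had 40.3, 31.7, 39.2, 39.0 and 25.9 TPM in clutch A, against at most 0.22 TPM in clutch B and at most 0.17 TPM in clutch C.

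The other members of this set kept a low signal in clutches B and C. Xetrov90026755m.g was at 25.1, 20.96, 20.7, 26.3 and 23.4 TPM in clutch A, between 0.27 and 1.05 TPM in clutch B and between 0.21 and 0.73 TPM in clutch C. Xetrov90029899m.g was at 14.1, 17.4, 16.1, 18.98 and 17.3 TPM in clutch A, between 0.30 and 0.93 TPM in clutch B and between 0.50 and 1.21 TPM in clutch C. Clutches B and C overlapped in both models, at levels too low to compare them.

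Other large differences had means above 1 TPM in all clutches, though still low ones in clutches B and C for Xetrov90026750m.g. Xetrov90026754m.g stood at 108.6 ± 8.35 TPM in clutch A, 11.6 ± 0.995 in clutch B and 11.8 ± 2.34 in clutch C (SD, n = 5 each). Xetrov90011935m.g averaged 57.6 ± 3.73 TPM in clutch A, 7.70 ± 2.25 in clutch B and 11.7 ± 1.71 in clutch C, and was lower in B than in C by 0.57 on the log2(TPM + 1) scale (SE 0.14, limma adjusted p = 0.003). Xetrov90026750m.g was at 13.6 ± 1.27 TPM in clutch A, 2.29 ± 0.408 in clutch B and 1.97 ± 0.236 in clutch C. The embryos of clutch A were close together in these models.

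Clutch A embryos differed widely among themselves in Xetrov90015396m.g. It had 66.8, 52.5, 119.5, 84.3 and 163.2 TPM in embryos 1 to 5 of clutch A, against 14.1, 2.71, 10.2, 8.94 and 2.22 TPM in clutch B and 9.71, 8.14, 8.99, 10.1 and 6.56 TPM in clutch C. The spread within clutch A was 45.8% of its mean, the widest of the high models, and clutch B was also spread out, while clutch C was not.

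The most abundant high models also varied among clutch A siblings. Xetrov90007733m.g reached 412.2, 1021, 635.4, 625.2 and 814.9 TPM in clutch A, against 120.1 to 213.6 TPM in clutch B and 203.8 to 325.6 TPM in clutch C. Its highest clutch A embryo held more than any other value of the high models, and its lowest lay above the highest embryo of clutch C. Xetrov90015403m.g and Xetrov90015434m.g had the same value in every one of the 15 embryos, at 617.3, 679.4, 617.8, 406.9 and 862.6 TPM in clutch A, 111.2 to 282.7 TPM in clutch B and 50.5 to 112.3 TPM in clutch C. Such equal values were counted as 2 models by the rule and cannot be told apart. Xetrov90001492m.g was steadier, at 407.9 ± 63.1 TPM in clutch A, 229 ± 13.9 in clutch B and 218 ± 13.0 in clutch C (SD, n = 5 each).

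Of the low models, 3 had a clutch A mean under 1 TPM. Xetrov90020226m.g was listed at 0 in all 5 clutch A embryos, against 47.5, 49.2, 43.1, 50.8 and 46.7 TPM in clutch B and 43.5, 56.7, 53.6, 43.8 and 54.2 TPM in clutch C. It was thus at a like level in the 10 other embryos and listed at 0 in clutch A, and clutch B did not pass the test against clutch C (limma adjusted p = 0.453). Xetrov90020635m.g had 0.55, 0, 0.03, 0 and 0 TPM in clutch A, 32.2 to 38.3 TPM in clutch B and 13.2 to 18.5 TPM in clutch C. The model with the next ID number, Xetrov90020636m.g, had 0.19, 0, 0.85, 0 and 0 TPM in clutch A, 29.2 to 38.2 TPM in clutch B and 8.93 to 16.2 TPM in clutch C.

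These neighbouring models thus formed 3 steps, with clutch B highest, clutch C between and clutch A near 0. Both also met the same rule as models high in clutch B. Clutch B exceeded clutch C by 1.06 on the log2(TPM + 1) scale in Xetrov90020635m.g (SE 0.12, limma adjusted p = 3.24e-06) and by 1.32 in Xetrov90020636m.g (SE 0.17, adjusted p = 1.16e-05). These p-values depended on the pseudocount. With one of 0.1 TPM the limma adjusted p was 0.0329 and 0.0340 in the 2 models, at differences of 1.10 and 1.38. With one of 5 TPM the limma adjusted p was 2.14e-08 and 1.62e-07, at differences of 0.91 and 1.11. All 5 clutch B embryos lay above all 5 clutch C embryos in both.

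In other low models clutch A was not uniform. Xetrov90019687m.g had 0, 13.1, 0.18, 22.5 and 1.24 TPM in embryos 1 to 5 of clutch A, against 104.6, 153.6, 111.2, 114.4 and 102.6 TPM in clutch B and 124.6, 138.0, 164.0, 91.0 and 146.0 TPM in clutch C. Embryos 2 and 4 held most of the clutch A signal, and still lay far under the other 10. Xetrov90017997m.g had 0.42, 0.59, 3.45, 0.73 and 2.66 TPM in clutch A, 8.98, 7.80, 16.1, 5.73 and 13.4 TPM in clutch B and 13.5, 16.7, 18.5, 16.9 and 20.5 TPM in clutch C. Clutch B was spread out as well, and the highest clutch A embryo lay below the lowest of clutch B.

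Xetrov90010948m.g had 0.89 to 1.46 TPM in clutch A, 12.6 to 17.9 TPM in clutch B and 9.69 to 17.3 TPM in clutch C. Xetrov90025285m.g had 0.80, 1.89, 1.54, 1.61 and 2.60 TPM in clutch A, 10.5 to 14.7 TPM in clutch B and 11.6 to 14.3 TPM in clutch C. Clutches B and C overlapped in both models, and the spread within clutch A was 38.5% of the mean in Xetrov90025285m.g. At the top of the range, Xetrov90015134m.g had 313 ± 35.3 TPM in clutch A, 666 ± 25.7 in clutch B and 1061 ± 44.3 in clutch C (SD, n = 5 each). Its clutches did not overlap at all, and clutch B was lower than clutch C by 0.67 on the log2(TPM + 1) scale (SE 0.06, limma adjusted p = 2.48e-07). The same rule also found Xetrov90015134m.g high in clutch C. Xetrov90027280m.g stood at 141 ± 27.7 TPM in clutch A, 349.6 ± 40.2 in clutch B and 367 ± 77.8 in clutch C. For Xetrov90016463m.g the levels were 161 ± 20.2, 298 ± 5.14 and 345 ± 27.9 TPM in clutches A, B and C, with B lower than C by 0.21 (SE 0.07, limma adjusted p = 0.0241). That call was lost without embryo 4 or embryo 5 of clutch C (highest adjusted p = 0.0696).

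**Figure D2:**
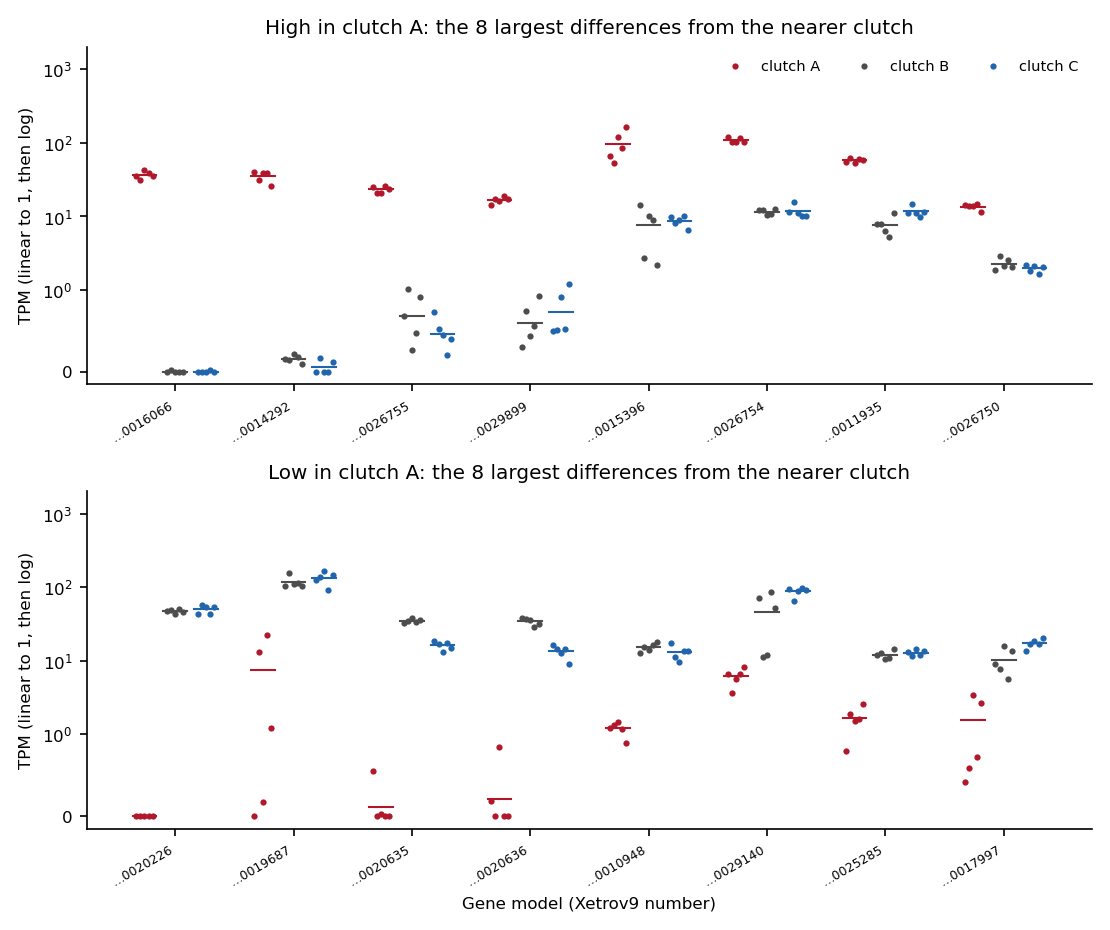
TPM of every embryo (points, with the clutch mean as a bar) in the 8 high and the 8 low models with the largest difference on the log2(TPM + 1) scale between clutch A and the nearer of clutches B and C. The axis is linear up to 1 TPM and logarithmic above it. Embryos of clutch A lie close together in most high models, with Xetrov90015396m.g as the widest, and are spread out in low models such as Xetrov90019687m.g.

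The next comparison was that of clutch B with clutch C within the members. Of the 93 high models, 51 (54.8%) passed the limma test of clutch B against clutch C with an adjusted p below 0.05, against 48.1% of all 12551 models tested and 50.6% of the 8542 models with a mean of at least 10 and under 750 TPM. Clutch B was higher in 30 (32.3%), against 28.2% of all models tested and 30.6% of those in that range. It was lower in 21 (22.6%), against 19.8% and 19.9%. These shares lay near those of all models. The 4 high models with clutch B and clutch C means both under 1 TPM entered the test only through their clutch A values. In a fit of clutches B and C alone, 89 of the 93 were tested, and clutch B was higher in 29 and lower in 22. Of the 99 low models, 40 (40.4%) passed, with clutch B higher in 14 (14.1%) and lower in 26 (26.3%). With equal models counted once, clutch B was higher in 14 and lower in 26 of 93 low models. Among 92 high models so counted, it was higher in 29 and lower in 21. The median difference of B minus C was 0.08 in the high and -0.08 in the low models, on the log2(TPM + 1) scale, beside 0.05 over all models tested. The differences between these shares were not tested.

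Large differences between clutches B and C made up a larger share of the high models than of all models. At least 2-fold on the log2(TPM + 1) scale and past the test were 18 of the 93 high models (19.4%) and 8 of the 99 low models (8.08%), against 5.69% of all models tested and 3.2% of those with a mean of at least 10 and under 750 TPM. At least 4-fold were 12 high models (12.9%) and 1 low model (1.01%), against 1.57% and 0.925%. The 18 counted Xetrov90015403m.g and Xetrov90015434m.g apart, though they were equal in every embryo. The 12 included Xetrov90023916m.g, Xetrov90023919m.g and Xetrov90023927m.g, which have nearby IDs and a like pattern. The rule sets no lower limit on clutches B and C in a high model, whereas it asks for at least 10 TPM in both in a low one. The members were chosen for a large difference between clutches, and these shares are given as counts only.

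**Figure D3:**
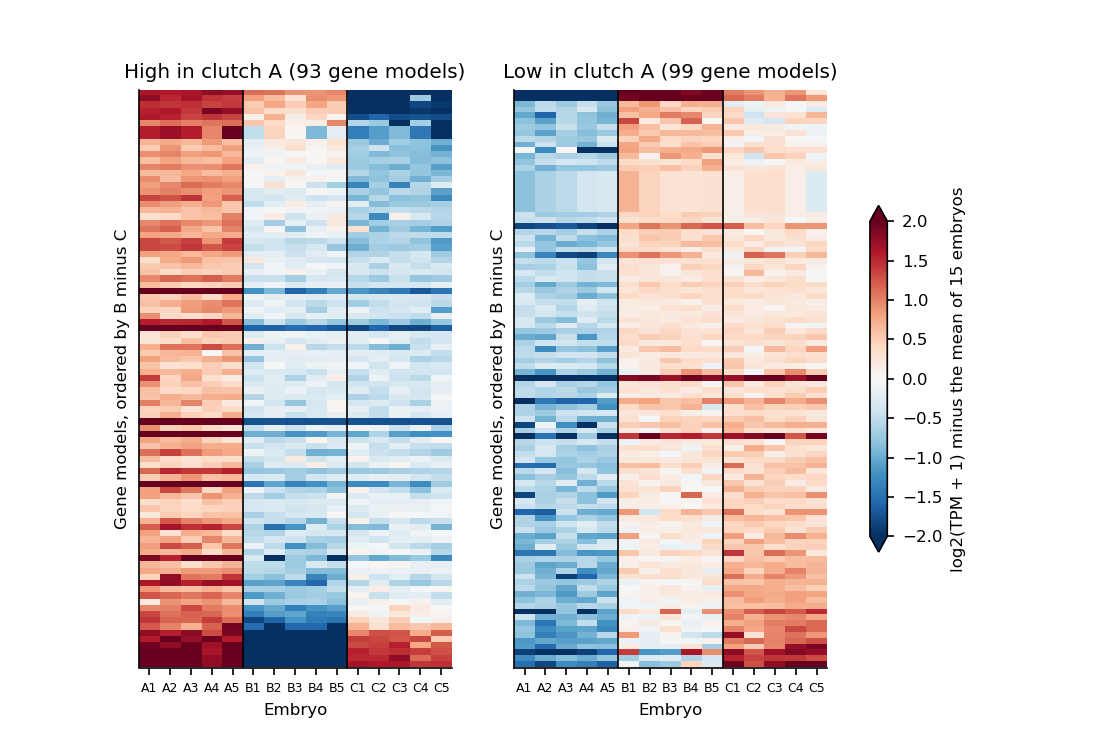
log2(TPM + 1) minus the mean of the 15 embryos for the 93 high (left) and 99 low models (right), by embryo, with clutch A first. Models are ordered from the highest to the lowest difference of clutch B minus clutch C, and colours stop at 2 in either direction. Clutch C joins the low side at the top of the high group and clutch B at its foot.

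The 12 high models with a 4-fold difference were of opposite kinds. In 7 of them clutch B was low and clutch C was nearer to clutch A than to clutch B. These 7 also met the same rule as models low in clutch B. Xetrov90019704m.g had 217.2, 199.9, 258.9, 160.8 and 223.2 TPM in clutch A, 3.30, 3.24, 2.06, 2.05 and 2.84 TPM in clutch B and 148.0, 142.5, 144.7, 126.8 and 129.7 TPM in clutch C. Clutch A was thus above clutch C, at a ratio of means of 1.53, and both were far above clutch B. The difference of B minus C was -5.25 (SE 0.12, limma adjusted p = 3.76e-15). Xetrov90030618m.g had 22.0, 30.7, 24.6, 29.0 and 22.1 TPM in clutch A, was listed at 0 in all of clutch B and had 19.4, 18.4, 17.2, 18.5 and 9.90 TPM in clutch C (limma adjusted p = 1.17e-12).

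Of the same kind was a group of 3 models with nearby IDs. Xetrov90023916m.g had 165.3, 140.7, 166.7, 108.2 and 161.5 TPM in clutch A, 1.11 to 3.66 TPM in clutch B and 85.9 to 104.1 TPM in clutch C. Xetrov90023919m.g had 54.1, 48.5, 60.7, 45.8 and 71.5 TPM in clutch A, 0.13 to 0.90 TPM in clutch B and 23.8 to 41.7 TPM in clutch C. Xetrov90023927m.g had 383.6, 347.3, 365.8, 289.2 and 472.8 TPM in clutch A, 4.87 to 7.19 TPM in clutch B and 185.1 to 287.6 TPM in clutch C. In all 3, embryo 4 was the lowest of clutch A, and its value lay close to the highest of clutch C. This was not particular to nearby IDs, as it also held in Xetrov90019704m.g and Xetrov90027459m.g. In Xetrov90027536m.g and Xetrov90030618m.g another embryo was the lowest of clutch A. Clutch B was lower than clutch C by 4.89, 4.46 and 5.03 on the log2(TPM + 1) scale (limma adjusted p = 2.1e-12, 1.19e-12 and 3.8e-14). The remaining models of this kind were Xetrov90027459m.g, given above for the fold limit, and Xetrov90027536m.g, at 17.5 ± 6.27, 1.30 ± 0.44 and 10.4 ± 1.16 TPM in clutches A, B and C.

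In the other 5 models clutch C was low and clutch B lay between it and clutch A. All of these except Xetrov90028232m.g also met the same rule as models low in clutch C. Xetrov90028232m.g missed its level limit, with a clutch B mean of 5.40 TPM. Xetrov90027335m.g had 80.0, 79.1, 80.6, 89.9 and 88.4 TPM in clutch A, 56.6, 55.2, 48.4, 48.3 and 51.2 TPM in clutch B and 3.37, 3.28, 4.43, 2.24 and 2.65 TPM in clutch C, and B exceeded C by 3.68 (SE 0.11, limma adjusted p = 7.02e-14). Xetrov90028959m.g averaged 419 ± 13.5 TPM in clutch A, 239 ± 25.1 in clutch B and 37.1 ± 5.29 in clutch C, with B above C by 2.66 (SE 0.09, adjusted p = 3.25e-13). No clutch overlapped another in either model.

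Xetrov90020801m.g had 18.6 to 24.7 TPM in clutch A, 8.02 to 13.2 in clutch B and 0.10, 0.32, 0.18, 3.44 and 0.22 TPM in clutch C, so that embryo 4 stood above its siblings. Clutch B exceeded clutch C by 2.96 (SE 0.30, limma adjusted p = 1.31e-06), by 4.53 with a pseudocount of 0.1 TPM and by 1.496 with one of 5 TPM. Xetrov90028232m.g, at 13.6 ± 1.94 TPM in clutch A, 5.40 ± 0.465 in clutch B and 0.076 ± 0.106 in clutch C, and Xetrov90015466m.g, at 35.2 ± 2.86, 15.2 ± 3.23 and 2.96 ± 0.231 TPM in clutches A, B and C, completed this kind.

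Low models with a strong difference between clutches B and C were fewer. Xetrov90028369m.g had 33.9, 27.1, 40.5, 37.6 and 31.1 TPM in clutch A, 94.7, 54.6, 59.1, 133.5 and 80.0 TPM in clutch B and 382.3, 240.6, 339.1, 414.1 and 398.1 TPM in clutch C, with B lower than C by 2.11 (SE 0.22, limma adjusted p = 2.47e-06). Its clutches rose in 3 steps without overlap, and clutch B was the most spread out. The same rule also found this model high in clutch C. Xetrov90028091m.g showed clutch B nearer to clutch A than to clutch C, which was above both. Clutch B was lower than clutch C by 1.84 (SE 0.10, limma adjusted p = 2.3e-10). In Xetrov90009610m.g the order was the other way, at 36.0 ± 4.70 TPM in clutch A, 92.9 ± 10.5 in clutch B and 57.9 ± 6.93 in clutch C, with B above C by 0.67 (SE 0.10, limma adjusted p = 4.36e-05). The same rule also found Xetrov90009610m.g high in clutch B.

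Siblings split in 1 of these models. Xetrov90029140m.g had 6.63, 3.62, 5.65, 6.59 and 8.28 TPM in clutch A, 72.1, 11.2, 11.8, 84.7 and 51.8 TPM in clutch B and 95.0, 65.5, 88.99, 98.1 and 92.2 TPM in clutch C. Embryos 2 and 3 of clutch B lay near clutch A and the other clutch B embryos nearer to clutch C. The difference of B minus C was -1.34 (SE 0.50, limma adjusted p = 0.0421). Without embryo 2 of clutch B it was -0.96 (limma adjusted p = 0.102), and without embryo 3 of clutch B it was -0.97 (adjusted p = 0.105). The call was also lost without embryo 1, 3, 4 or 5 of clutch A or of clutch C, at the same or nearly the same difference (highest adjusted p = 0.0763), and in a fit of clutches B and C alone (adjusted p = 0.0963).

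**Figure D4:**
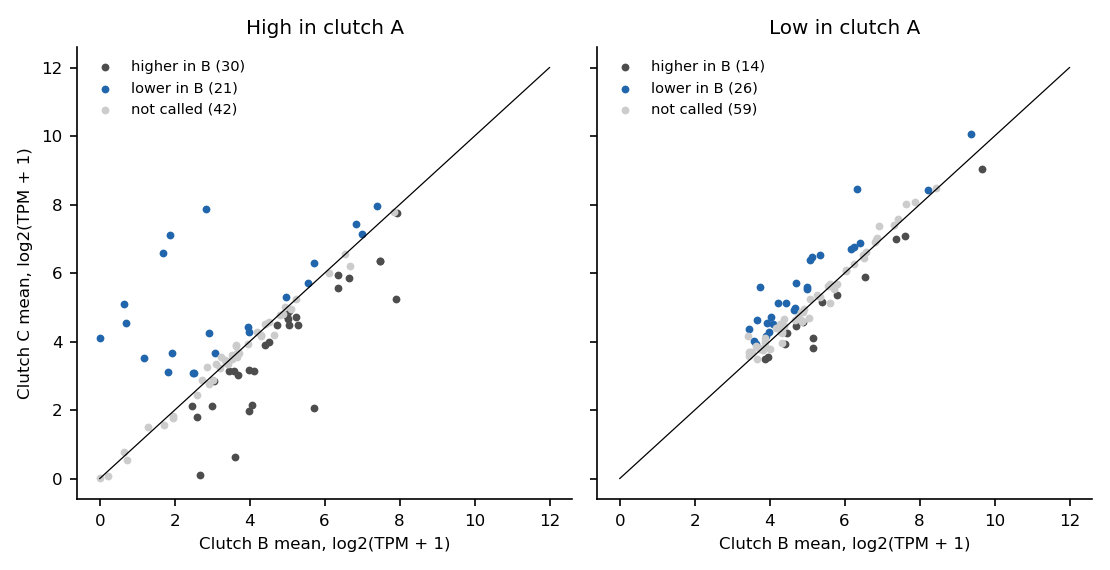
Mean log2(TPM + 1) of clutch B (horizontal) against clutch C (vertical) for the 93 high (left) and 99 low models (right). Models past the test between clutches B and C are dark grey where clutch B was higher and blue where it was lower, and light grey models did not pass. In the high group, points far from the line of equal means lie on both sides, some of them with clutch B or clutch C near 0.

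Members tended to have nearby numbers in their IDs, a property the rule did not use. The table does not say what the order of the numbers means. Of the 192 members, 60 (31.2%) had another member within 10 ID numbers, against 10.7% of the 8377 other models with a mean of at least 10 and under 750 TPM. Within 5 numbers the shares were 21.9% and 5.83%, and for directly following numbers 10.4% and 1.15%. A share near that of the members was also found for clutch B, in a set of like size. Of the 199 models that set clutch B apart by the same rule, 30.7% had another of their kind within 10 numbers. For clutch C it was 32.8% of 466 models, but a larger set has more near neighbours by chance. The share among other models was not counted for clutches B and C, so crowding there cannot be judged. These sets shared some models with the members. The distances were chosen after the numbers had been seen, and no test was made.

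Some of the members had equal values, among them some with nearby numbers. There were 2 sets of members with the same TPM in all 15 embryos, the pair Xetrov90015403m.g and Xetrov90015434m.g and a set of 7 low models that included Xetrov90006481m.g, Xetrov90022605m.g, Xetrov90022608m.g and Xetrov90022614m.g. The models of the pair, and Xetrov90006481m.g in the set of 7, had no equal model within 10 ID numbers. Each of the 7 had 11.6, 13.3, 14.5, 16.2 and 16.7 TPM in clutch A, 25.8 to 34.5 TPM in clutch B and 17.3 to 27.3 TPM in clutch C. Counted once, there were 92 high and 93 low models, and 29.2% of these 185 had another within 10 numbers. Over the whole table, 1627 models with a value above 0 shared all their values with another model.

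The 60 members with near numbers fell into 24 blocks of 2 to 5 models. In 6 blocks all members were high, in 10 all were low and in 8 both kinds occurred. In a block of 5, Xetrov90026750m.g, Xetrov90026754m.g and Xetrov90026755m.g were high in clutch A, and Xetrov90026758m.g and Xetrov90026759m.g were low. Xetrov90026758m.g had 18.2, 12.8, 6.13, 7.66 and 12.9 TPM in clutch A, 29.0 to 32.0 TPM in clutch B and 37.7 to 54.6 TPM in clutch C. Xetrov90026759m.g had 1.34, 4.38, 4.51, 3.77 and 2.83 TPM in clutch A, 7.15 to 17.7 TPM in clutch B and 9.62 to 14.97 TPM in clutch C. Between these members, Xetrov90026752m.g was also high in clutch A, at 7.38 ± 1.29 TPM against 0.462 ± 0.269 in clutch B and 0.73 ± 0.348 in clutch C, and missed the level limit. Xetrov90026753m.g, at 39.7 ± 2.86 TPM in clutch A, 41.2 ± 4.05 in clutch B and 69.5 ± 3.72 in clutch C, was no member.

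High and low members also stood side by side around the abundant pair with equal values. Xetrov90015402m.g had 199.1, 330.5, 307.6, 327.9 and 275.4 TPM in clutch A, 99.2 to 133.7 TPM in clutch B and 151.4 to 189.9 TPM in clutch C. Xetrov90015405m.g, low in clutch A, had 5.84, 3.81, 2.42, 2.29 and 3.90 TPM there, 12.8 to 24.5 TPM in clutch B and 10.2 to 26.3 TPM in clutch C. Xetrov90015433m.g, the neighbour of Xetrov90015434m.g, was low, at 70.2 ± 13.1 TPM in clutch A, 165.9 ± 19.7 in clutch B and 127 ± 15.0 in clutch C. Xetrov90015425m.g in the same block had 310.5, 377.4, 353.6, 433.0 and 302.5 TPM in clutch A, 720.8 to 944.1 TPM in clutch B and 442.7 to 730.0 TPM in clutch C, so that clutch A and clutch C nearly met. The submitters' processing notes name RSEM, a program that divides reads matching several models between them by an estimate. The part of such shared reads in these values was not tested.

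**Figure D5:**
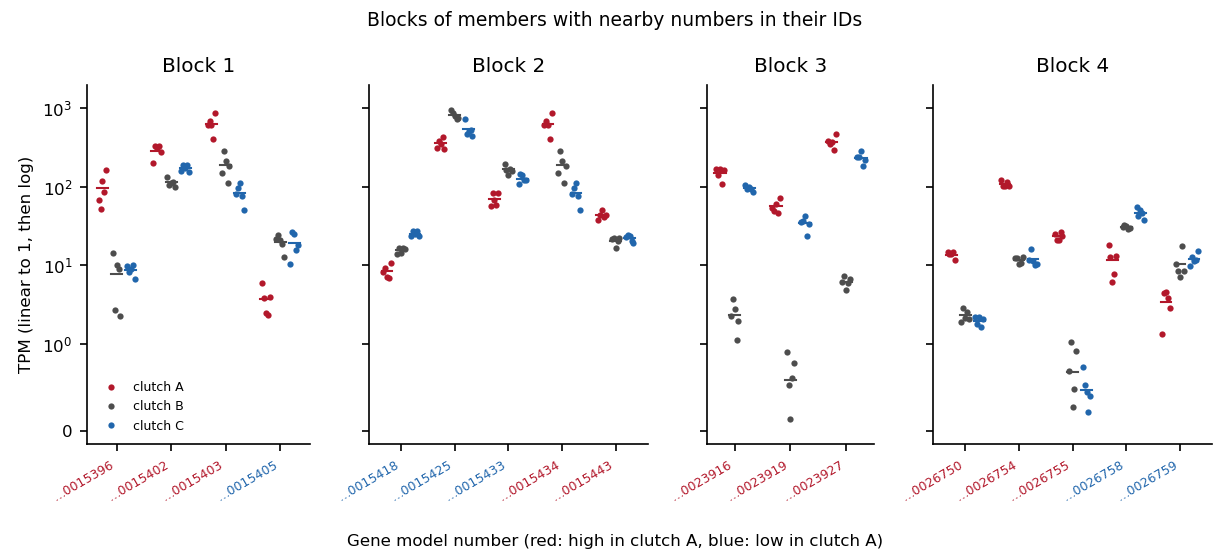
TPM of every embryo (points, with the clutch mean as a bar) for members in 4 blocks of nearby ID numbers, the 3 with at least 4 members and the most abundant of the blocks with 3. Labels are red for models high and blue for models low in clutch A, and the axis is linear up to 1 TPM and logarithmic above it. Blocks with red and blue labels hold both kinds side by side, and the block with Xetrov90023927m.g shows clutch B far below clutches A and C.

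Further directly adjacent members were picked within the high and the low group apart, so each pair was alike in direction by choice. The adjacent Xetrov90015433m.g and Xetrov90015434m.g, given above, differed in direction. Xetrov90005659m.g and Xetrov90005660m.g were both high, the first at 55.3 ± 9.26 TPM in clutch A, 24.5 ± 5.80 in clutch B and 18.8 ± 9.65 in clutch C, the next at 68.4 ± 11.8, 22.4 ± 6.29 and 22.96 ± 3.21 TPM in clutches A, B and C. Xetrov90014696m.g and Xetrov90014697m.g were both low, at 10.1 ± 1.27 and 24.6 ± 1.09 TPM in clutch A, against 18.7 ± 1.87 and 39.8 ± 2.64 TPM in clutch B and 19.9 ± 2.45 and 38.97 ± 7.99 TPM in clutch C. Xetrov90029139m.g, next to the split model Xetrov90029140m.g, had 13.4 ± 1.36 TPM in clutch A, 32.9 ± 7.11 in clutch B and 25.5 ± 6.73 in clutch C, and its clutch B embryos were not split in the same way, at 34.7, 23.6, 41.4, 37.0 and 27.9 TPM.

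The median spread among siblings was larger in the members than in a comparison set of 8542 models. Only 74 of the high and 91 of the low members reached the mean of at least 10 TPM required of that set. The standard deviation over the mean of 5 siblings had a median of 10.3% in clutch A, 13.1% in clutch B and 13.3% in clutch C over the high models. It was 14.7%, 11.0% and 11.8% over the low models, and 8.57%, 7.36% and 7.53% over the 8542 models with a mean of at least 10 and under 750 TPM. In each group the spread was thus wider in the clutches where the models were low. Levels were not matched in this comparison and the rule itself used the embryos' values, so no test is given.

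Values of an embryo that took no part in choosing models were looked at by leaving out 1 embryo at a time. Without 1 of the clutch A embryos, the rule chose 92 to 101 high models, and the left-out embryo lay above all embryos of clutches B and C in 89.1% to 100% of them. The lowest share belonged to embryo 4, which lay above in 90 of 101. For the 101 to 111 low models so chosen, the left-out embryo lay below in 92.8% to 99.0%. With an embryo of clutch B or C left out, its value was on the side of its clutch in 97.8% to 100% of the high and 95.0% to 100% of the low models. Siblings share parents and may share handling, which is not given, so this describes how alike the embryos of a clutch were.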

How the data were processed

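Polyadenylated RNA of 15 single embryos was turned into libraries with Smart-seq2 followed by tagmentation, according to the labels' protocols. The authors deposited TPM values for 26550 gene models with 1 column per embryo. RSEM 1.2.12 and Bowtie2 2.2.7 are named in the submitters' processing notes, and genome build and annotation were not given in the sources used here. Depth per embryo is unknown. The 9 H3K4me1 peak lists were not used. Clutches were taken from the sample titles, and whether embryos were processed in batches is not given there. The labels number the embryos, so p-values rest on the spread between siblings, with 1 clutch behind each letter. In the main fit this spread was pooled over clutches A, B and C. Clutch A, on which the members were chosen, thus entered the test of clutch B against clutch C.

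The members, lists and tests were chosen with earlier results of these data known. TPM was used as deposited. Clutch B was compared with clutch C by limma 3.58.1 in R 4.3.3 (lmFit, eBayes with trend and robust) on log2(TPM + 1) of all 15 embryos over the 12551 models with a mean of at least 1 TPM, with Benjamini-Hochberg adjustment over all of them and a call at an adjusted p under 0.05. For models of low level, differences on this scale are smaller than the true log ratio. Models were named by a rule: the largest differences from the nearer clutch, the highest means, the largest called B minus C differences, the models next to each limit and directly following IDs. The other models named, among them those of 4-fold B minus C differences and of ID blocks, were chosen after their values were seen. The rule and the limma step were run on simulated data as a check of the code. For the rule, the planted shifts were larger and the spread smaller than in most members. That check therefore does not show how well the rule works on real embryos. Counts and figures were made in Python 3.11.15 with pandas 2.3.3, numpy 2.4.6 and matplotlib 3.10.9.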

Additional observations from a re-analysis of the deposited data

Results flagged for a closer look

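Each group of 5 siblings was searched for an embryo whose gap to its nearest sibling took up over 0.71 of the range of the 5. This was done for the 48 models named by the rule and for the summed share of the members, 150 groups in all, and 13 were found. For independent, normally distributed values, chance would give about 1 in 20 groups, or 7.5. Not all groups met this condition: in Xetrov90016066m.g a value of 0.02 TPM stood beside values of 0, and models with equal values were counted apart. No conclusion is therefore drawn from 13 against 7.5.

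In clutch A, embryo 1 was high in Xetrov90020635m.g (0.55 TPM, the others at most 0.03) and in Xetrov90025520m.g (7.30 TPM, the others 4.71 to 5.29), and embryo 3 was high in Xetrov90020636m.g (0.85 TPM, the others at most 0.19).

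In clutch B, embryo 2 was high in Xetrov90019687m.g (153.6 TPM, the others 102.6 to 114.4) and in Xetrov90016066m.g (0.02 TPM, the others listed at 0), and embryo 3 was high in Xetrov90025520m.g (12.3 TPM, the others 9.22 to 9.86).

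In clutch C, embryo 1 was high in Xetrov90005659m.g (35.9 TPM, the others 12.5 to 17.1) and in Xetrov90015425m.g (730.0 TPM, the others 442.7 to 523.1). Embryo 2 was high in Xetrov90014697m.g (52.9 TPM, the others 33.8 to 38.2) and in Xetrov90026754m.g (15.8 TPM, the others 10.1 to 11.7), and low in Xetrov90029140m.g (65.5 TPM, the others 88.99 to 98.1). Embryo 4 was high in Xetrov90020801m.g (3.44 TPM, the others 0.10 to 0.32) and in Xetrov90016066m.g (0.02 TPM, the others listed at 0).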

How the results depend on the processing

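The number of members followed the limits of the rule. A fold limit 25% above the other mean in place of 50% gave 177 high and 189 low models, and one of 2-fold gave 43 and 41. A level limit of 20 TPM left 61 low models. Under a level limit of 5 TPM, no upper limit, median-ratio scaling, quantile normalization and equal models counted once, the counts stayed within 1.5 times the reported ones, as did a level limit of 20 TPM for the high models. Without 1 embryo, 90 to 101 high and 99 to 111 low models were found.

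The counts for clutch B against clutch C stayed within 1.5 times under every alternative run. Without 1 embryo, 27 to 30 high models were higher and 19 to 22 lower in B, and 12 to 15 low models were higher and 22 to 27 lower. With the sample number as a replicate block, these counts were 27, 21, 15 and 30. The labels do not tie the numbers together, and 2 of 15 same-numbered pairs of embryos had deviations that correlated by over 0.1. Correlations ranged from -0.067 to 0.149 in same-numbered pairs and from -0.227 to 0.255 in differently numbered pairs. Of the 91 members called, 13 lost the call under at least 1 alternative and 0 changed direction. Among named models these were Xetrov90007733m.g, Xetrov90016463m.g, Xetrov90026758m.g and Xetrov90029140m.g.

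As the SD of log2(TPM + 1), the median spread was 0.15, 0.17 and 0.16 over the high models and 0.20, 0.15 and 0.16 over the low models in clutches A, B and C (this is another scale than percent), and clutch A again had the smallest value of the clutches in the high and the largest in the low models. Unknown depth limits all values near 0 TPM.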
